A study of Danio rerio with 10 samples.

Results

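Transcription factor features were followed through RNAseq of the adult zebrafish spinal cord. They were taken by Ensembl identifier, 8 of 31388 counted features, of which 7 are described here. Among them are pax6a, nkx6.1, sox3, sox11a, sox11b and sox19a, factors that mark or pattern neural progenitors in the embryo. Expression was compared between oligodendrocyte progenitor cells (OPCs, olig2:GFP-positive) of the line Tg(olig2:eGFP) and myelinating oligodendrocytes (OLs, mbp:GFP-positive) of the line Tg(mbp:eGFP). Each population was FACsorted from adult cords for 5 libraries, named here OPC1 to OPC5 and OL1 to OL5. Both lines carry an eGFP transgene, no treatment or age beyond adult is given, and a sample could hold tissue of several cords. Transgenic line, cell strainer (finer for OPCs) and cell population changed together and cannot be told apart. In the adult cord the olig2 transgene also labels some of the ventral radial glia that line the central canal, so the OPC gate could hold those cells. In sorted bulk RNA, fewer cells that express a gene and less of its RNA per cell cannot be told apart either.

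SoxB1 proteins (sox3, sox19a and their relative sox2) are HMG-box factors that keep neural progenitors undifferentiated, and sox19a belongs to a branch best known from fish. SoxC proteins (sox11a, sox11b) act later, in committed precursors and newborn neurons. Homeodomain factors such as Nkx6.1 and the paired-type Pax6 divide the embryonic ventral neural tube into progenitor domains, one of which, the pMN domain, is marked by olig2 and gives rise to motor neurons and then OPCs.

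Of the 7 identifiers 6 carried the listed gene name in the gene table. The other, ENSDARG00000009702, is named si:ch211-210p4.6 there, is not annotated as a transcription factor in the sources used here and is given under that name. It spans 49423146 to 49441094 on the plus strand of chromosome 7 (GRCz10, as are all positions given), with 10 exon blocks.

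The libraries held 11072526 to 11960408 counts in OPCs and 13937725 to 20225093 in OLs. Counts below are normalized by size factors that ran from 0.889 to 1.40, and their errors are SDs over 5 libraries. Errors of log2 fold changes are SEs. Among features that passed a filter on low counts, 1108 of 12292 were higher and 347 lower in OPCs (edgeR's quasi-likelihood test, Benjamini-Hochberg adjusted p under 0.05). Scaled by library size alone, the split was 1811 higher and 118 lower. Cells were sorted on olig2 and mbp transgenes, so olig2 and mbpa are not independent of the gates. Of 9 OPC markers pdgfra and cspg4 did not pass the filter (OPC means 16.3 and 5.78 normalized counts). Of the 7 tested 4 were higher in OPCs, among them olig1 (log2 fold change 5.66) and olig2 (2.21). Of 7 tested OL markers 4 were lower, among them mbpa (−0.81). With library size alone 2 of these, mpz (edgeR adjusted p = 0.0799) and cldnk (0.0905), lost their call. OL markers nevertheless summed to between 2072810 and 2599500 normalized counts in OPC libraries, against 3719030 to 4128540 in OL libraries. Their part in the results was not tested.

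Both SoxB1 members were clearly detected in every OPC library and were at or near 0 in OLs. The gene sox3 (ENSDARG00000053569, a single exon block on chromosome 14, 32402387 to 32404150, minus strand) had 93.7, 226, 129, 161 and 74.8 normalized counts in OPC1 to OPC5. In OL1 to OL5 it had 0, 0, 6.70, 0.988 and 11.3. The lowest OPC library thus lay far above the highest OL library. The means were 137 ± 59.7 and 3.79 ± 5.03 (SD, n = 5 each), a 36.1-fold ratio, and the log2 fold change was 5.19 ± 0.881 (SE, edgeR adjusted p = 0.00135).

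The gene sox19a (ENSDARG00000010770, 18 exon blocks on chromosome 5, 23695380 to 23697637, minus strand) had 50.0, 245, 74.3, 134 and 44.9 normalized counts in OPC1 to OPC5. It had no count in any OL library. The OPC mean was 109.6 ± 83.6, at least 39.6-fold above a floor of 3 counts per OL library (edgeR adjusted p = 0.000281). Taking the OPC median in place of the mean, the bound was 26.8-fold. This floor, like all counts here, allows for counting error only, since the amplified reads carry no stated molecular identifiers.

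SoxC expression could be read from only one of the paralogues. The gene sox11a (ENSDARG00000077811, 1 exon block on chromosome 17, 35930939 to 35934236, minus strand) had 26.6, 162, 106, 152 and 114 normalized counts in OPC1 to OPC5. The OL libraries had 2.86, 38.4, 8.94, 11.9 and 14.1. Here the populations overlapped, because OPC1 lay below OL2, while the other OPC libraries lay above every OL library. The means were 112 ± 53.5 and 15.2 ± 13.6, a 7.36-fold ratio, with a log2 fold change of 2.87 ± 0.652 (edgeR adjusted p = 0.0107). It was the member with the highest mean level per countable kb of exon in OLs apart from si:ch211-210p4.6, at 9.82 normalized counts per kb against 10.1.

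The paralogue sox11b (ENSDARG00000095743, 1 exon block on chromosome 20, 30129749 to 30132447, minus strand) had 0 counts in all 10 libraries. This zero cannot be read as absence of expression. Of its 2699 exonic bases 2682 are also exon of another feature, 1750 of them of ENSDARG00000024870 on the same strand and 1843 of si:dkey-227h16.2 on the opposite strand. That leaves 17 bases of its own, fewer than the 75 bases of a read. In the deposited table every one of the 196 features whose exons were wholly shared on the same strand was at 0 in all libraries, and so was every one of the 126 wholly shared on the opposite strand only. In the class of sox11b itself, the 491 features with 1 to 74 exonic bases of their own, 385 (78.4%) were at 0 and 32 had 10 or more counts in all, so a few reads can still be counted there. Among the 26490 features that share no exonic base, 18.7% were at 0. The gene sox11a loses 1747 of 3298 bases to ENSDARG00000092907 in the same way and keeps 1551, so its counts describe that remainder of the exon.

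**Figure D1:**
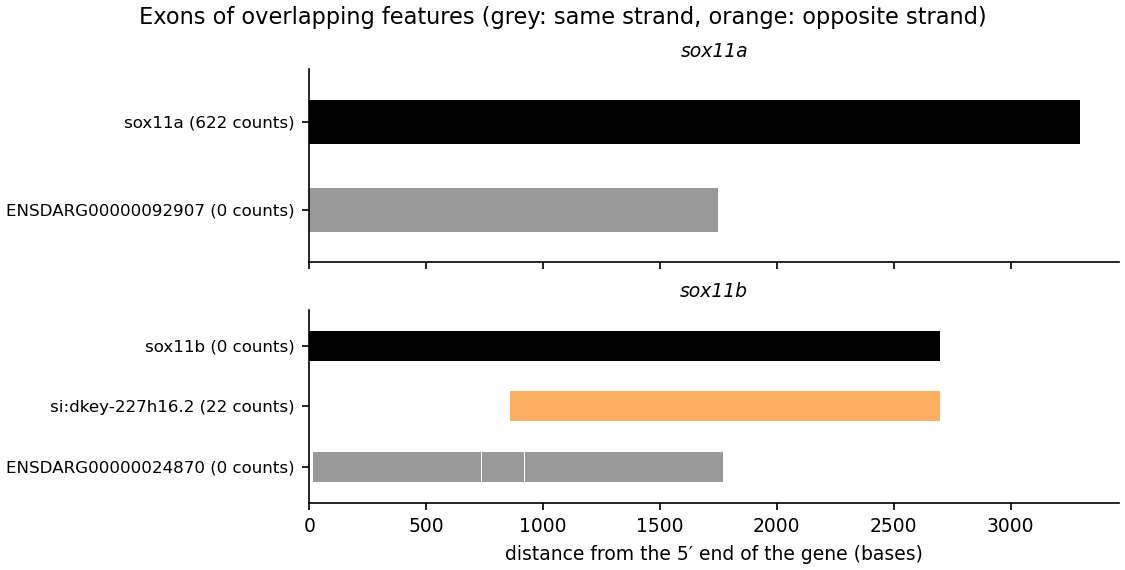
Exons of sox11a and sox11b and of the features that overlap them, drawn against the distance in bases from the 5′ end of each sox11 gene, with same-strand features in grey and opposite-strand features in orange. For sox11b the overlapping exons leave 17 bases uncovered, and for sox11a they leave 1551.

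The feature si:ch211-210p4.6 did not follow the others. It had 1.06, 0, 36.0, 24.1 and 0 normalized counts in OPC1 to OPC5 and 32.1, 0, 76.0, 30.6 and 27.2 in OL1 to OL5. The populations overlapped over most of their range. The means were 12.2 ± 16.8 and 33.2 ± 27.3, and the log2 fold change of −1.44 ± 1.27 did not pass the test (edgeR adjusted p = 0.567). It was called in 0 of 18 alternatives.

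Both patterning members were listed at 0 in every OL library. The gene nkx6.1 (ENSDARG00000022569, 7 exon blocks on chromosome 21, 19034285 to 19037195, plus strand) had 50.0, 98.5, 41.6, 71.2 and 78.5 normalized counts in OPC1 to OPC5. Its OPC mean of 68.0 ± 22.7 was at least 24.6-fold above the OL floor of 3 counts per library (edgeR adjusted p = 0.000111). It was the most even of the members across OPC libraries, with the highest library 2.37 times the lowest.

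The gene pax6a (ENSDARG00000103379, 33 exon blocks on chromosome 25, 14932641 to 14953381, minus strand) had 6.39, 94.4, 14.6, 6.57 and 11.2 normalized counts in OPC1 to OPC5. Most of its signal came from OPC2, and it did not pass the filter. The OPC mean was 26.6 ± 38.0, at least 9.62-fold above the OL floor. Without OPC2 the mean was 9.70 and the bound 3.50-fold. In a fit without the filter its edgeR adjusted p was 0.00324.

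**Figure D2:**
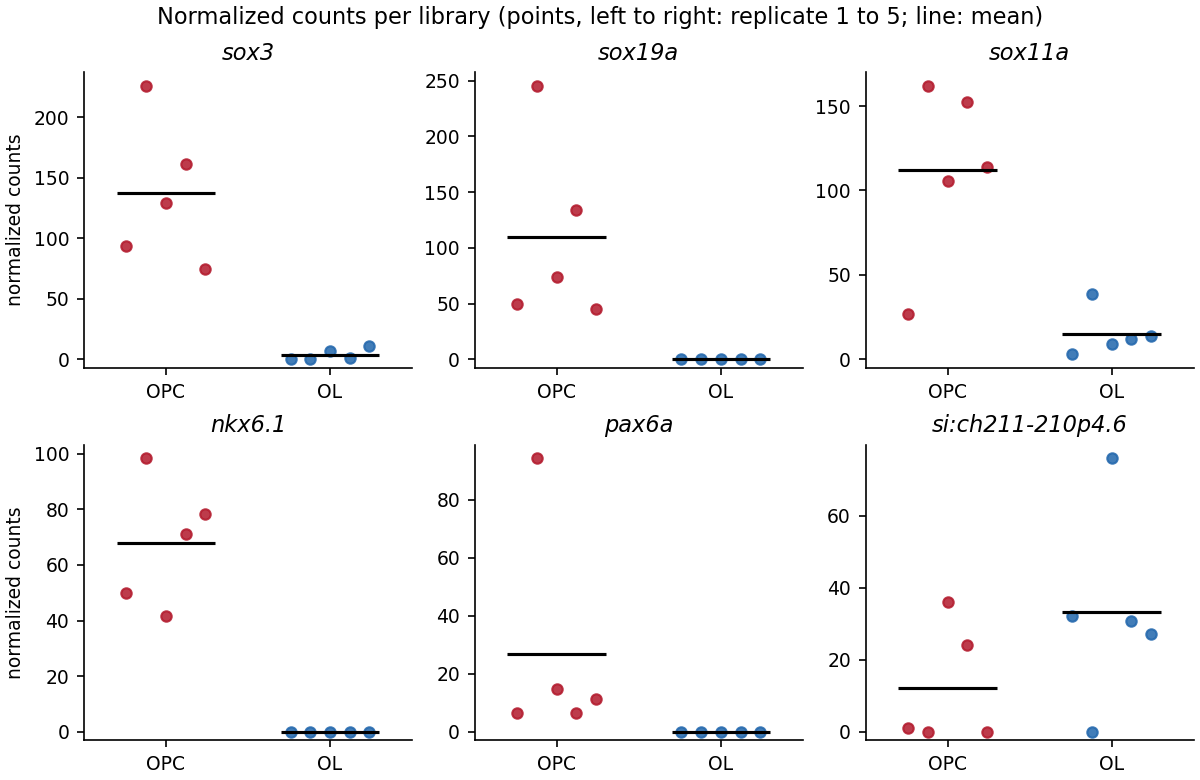
Normalized counts of the 6 features that have counts, each in a panel of its own with its own axis, in the 5 OPC and 5 OL libraries. Points are libraries, placed from left to right by replicate number, and lines are means. For sox3, sox19a, nkx6.1 and pax6a every OPC point lies above every OL point.

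Of the 7 members described 5 passed the filter, 4 were higher in OPCs, 0 were lower and 1 did not pass the test. Over all tested features 9.01% were higher and 2.82% lower in OPCs. In 3 of the 5 tested members all OPC libraries lay above all OL libraries, as they did in 8.93% of tested features, and in 0 all OPC libraries lay below, as in 3.68%. These shares are not a like-for-like background. The genes nkx6.1, sox3 and sox19a reached the filter's cutoff in 0 OL libraries. They could pass it only through the OPC libraries, which fixed their direction. The gene sox11a reached it in 5 OPC and 2 OL libraries, where 5 were needed, so it could not pass without OPC libraries either. The median log2 fold change of the tested members was 5.19, or 4.62 with nkx6.1 and sox19a at their bounds, beside 0.06 over all tested features.

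Each of the 4 calls was kept in 18 of 18 alternatives to the normalization, filter, test or library set in which the gene could be tested. For these 4 genes the filtered fits among the alternatives carry the limits given above. The largest adjusted p over the alternatives was 0.00772 for nkx6.1, 0.00799 for sox3, 0.0288 for sox11a and 0.00394 for sox19a.

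**Figure D3:**
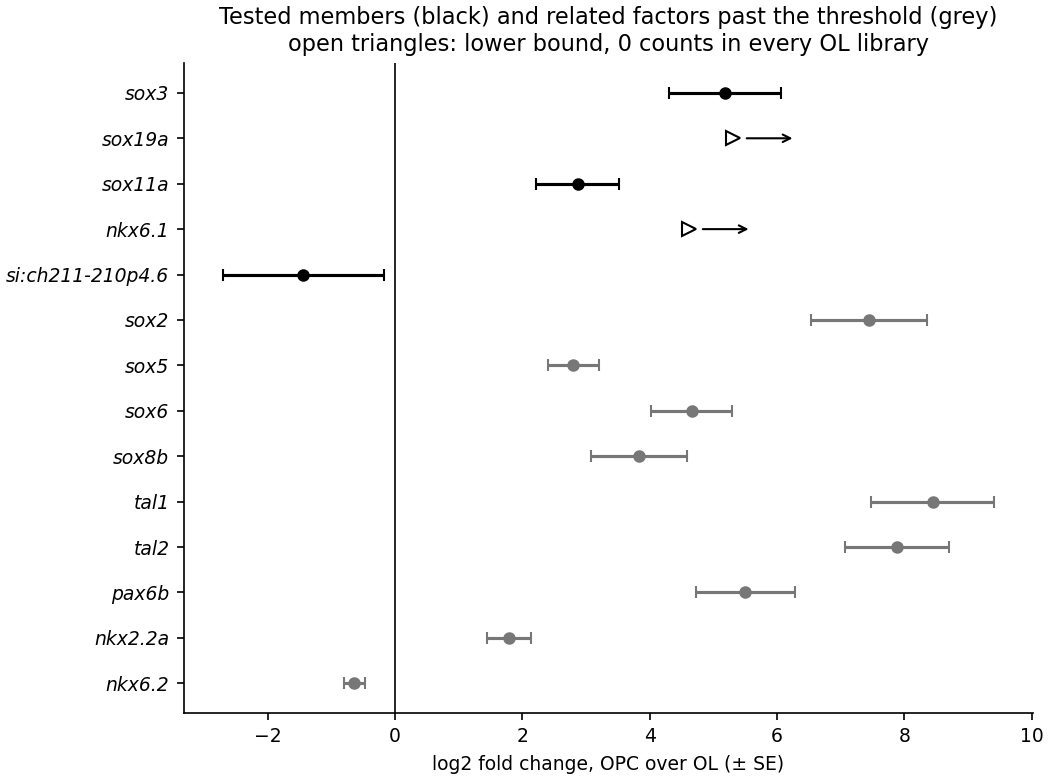
The log2 fold change (OPC over OL) of the tested members in black and of related factors that passed the test in grey. Bars are 1 SE, computed from edgeR's F statistic. Open triangles mark lower bounds for sox19a and nkx6.1, whose OL libraries were all at 0. The values of the called members lie above 0 and that of si:ch211-210p4.6 lies below it. For sox2, tal1 and tal2 all OL libraries together hold 1 or 2 counts, so the size of the fitted change rests on few counts.

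Levels could be ordered per countable kb of exon. In OPCs sox3 came first at 77.6 ± 33.8 normalized counts per kb, followed by sox11a at 72.3 ± 34.5, sox19a at 50.5 ± 38.5 and nkx6.1 at 33.6 ± 11.2. Below these came pax6a at 7.63 ± 10.9 and si:ch211-210p4.6 at 3.72 ± 5.11. Every gene overlapped its neighbour in this order in range, so no adjacent pair was separated beyond the spread between libraries. In OLs the mean level of sox3 was 2.15 normalized counts per kb.

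Expression was uneven among the OPC libraries. For each of 5 genes (the 4 called members and pax6a) OPC2 was the highest library. How often OPC2 was highest over all tested features is not given here. Among the related factors called below, OPC2 was also the highest OPC library for sox2, tal1, tal2 and pax6b. For sox5, sox6, nkx6.2 and nkx2.2a it was OPC4, and for sox8b OPC3. The lowest OPC library was OPC1 for pax6a and sox11a, OPC5 for sox3 and sox19a, and OPC3 for nkx6.1. An even spread would give each library 20% of a gene's OPC sum. The median share over the 5 genes was 9.13% in OPC1, 33.0% in OPC2, 13.6% in OPC3, 23.5% in OPC4 and 10.9% in OPC5.

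Genes differed in how far they departed from evenness. OPC2 held 70.9% of the pax6a sum, 44.7% of that of sox19a and 33.0% of that of sox3, but 28.9% of that of sox11a, where OPC4 held 27.2%. The highest library was 3.02 times the lowest for sox3, 5.47 times for sox19a, 6.09 times for sox11a and 14.8 times for pax6a. The coefficient of variation was lowest for nkx6.1 (33.4%) and highest for pax6a (143%). For comparison, its median over the 6603 tested features with an OPC mean between 20 and 250 normalized counts was 46.3%, and 3 of the 5 genes lay above that.

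**Figure D4:**
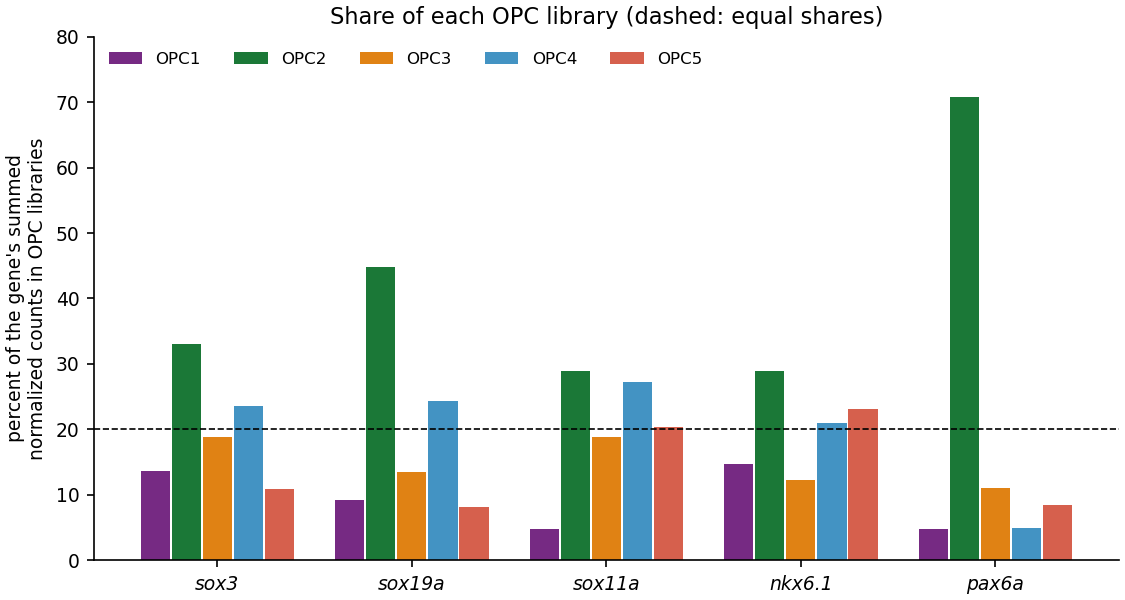
Percent of each gene's summed normalized counts over the 5 OPC libraries that each library holds, with a dashed line at 20, the share of an even spread. OPC2 has the tallest bar for every gene shown and reaches 70.9 for pax6a.

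The ratio of both SoxB1 members was compared to ask whether they changed unequally. The ratio of sox3 to sox19a counts was 1.87, 0.921, 1.74, 1.20 and 1.67 in OPC1 to OPC5. In OPC2, the library with the most sox19a, sox19a thus had more counts than sox3. Per countable kb sox3 stayed ahead there, at 128 against 113 normalized counts per kb. With 0.5 added to each count, the mean log2 ratio was 0.51 ± 0.429 in OPCs and 1.99 ± 2.12 in OLs (exact permutation test, two-sided, p = 0.214). The difference did not pass, and with sox19a at 0 in all OL libraries the OL ratio rests largely on the added 0.5. The smallest p this design allows is 0.00794. No ratio of sox11a to sox11b could be formed.

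Other genes of the same families were looked up in 5 lists of 70 genes, of which 67 were matched and 16 tested. Of these 8 were higher and 1 was lower in OPCs, beside 9.01% higher and 2.82% lower over all tested features. Among the 8, sox2, tal1, tal2 and pax6b reached the filter's cutoff in 0 OL libraries, and sox6 and sox8b in 1. With 5 libraries needed, none of these could pass it without the OPC libraries. Among 7 other SoxB genes only sox2, also a SoxB1 factor, passed the filter. It had 89.4, 136, 94.5, 87.7 and 25.2 normalized counts in OPC1 to OPC5 and was at 0 in all OL libraries but OL3, with 2.23. The mean was 86.6 ± 39.7 in OPCs against 0.447 ± 0.999 in OLs (edgeR adjusted p = 0.000115). Like sox3 and sox19a, sox2 reached the filter's cutoff in 0 OL libraries, so its direction was fixed by passing the filter.

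None of 3 other SoxC genes could be tested, and sox4a, like sox11b, has fewer countable bases than a read. Beside 9.01% of all tested features, 3 of 8 tested SoxD, SoxE and SoxF genes, from a list of 11, were higher in OPCs. These were the SoxD genes sox5 (598 against 86.0 normalized counts, log2 fold change 2.80 ± 0.399) and sox6 (359 against 14.2, 4.66 ± 0.633) and the SoxE gene sox8b (76.2 against 5.25, 3.83 ± 0.757). Of these, sox6 and sox8b reached the filter's cutoff in 1 OL library each, so they could not pass it without the OPC libraries. In the mouse, SoxD proteins hold back differentiation of oligodendrocyte precursors. The pan-oligodendroglial SoxE gene sox10 had a log2 fold change of −0.13 and did not pass (edgeR adjusted p = 0.793).

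Of 18 proneural and neuronal basic helix-loop-helix genes 2 were tested and both were called higher in OPCs, beside 9.01% of all tested features. Both reached the filter's cutoff in 0 OL libraries, so a higher OPC value was fixed by passing it. These were tal1 and tal2, which in the embryonic cord mark inhibitory neurons, including those that contact the cerebrospinal fluid. The gene tal1 had 79.8, 259, 109, 40.5 and 28.0 normalized counts in OPC1 to OPC5 and a single count in all OLs together (edgeR adjusted p = 7.68e-05). The gene tal2 had 55.4, 135, 40.5, 46.0 and 77.6, also with a single OL count (edgeR adjusted p = 3.6e-05). Of the 18 genes 5 (neurog3, ptf1a, bhlhe23, nhlh2 and olig3) had no count in any library.

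Of 28 other patterning genes 5 were tested. The paralogue pax6b had 18.1, 97.4, 20.3, 34.0 and 60.7 normalized counts in OPC1 to OPC5 and at most 1.71 in an OL library, a log2 fold change of 5.50 ± 0.779 (edgeR adjusted p = 0.00034). As for pax6a, OPC2 was its highest library. The ventral gene nkx2.2a, which is also an OPC marker, rose as well (log2 fold change 1.79 ± 0.345). By contrast nkx6.2, the close relative of nkx6.1, was present in both populations and lower in OPCs, at 742 ± 124 against 1153 ± 177 normalized counts (log2 fold change −0.64 ± 0.167, edgeR adjusted p = 0.0247). That call was lost with library size alone (adjusted p = 0.154), without OPC1 (0.0514) and without OL4 (0.0565), with the direction kept. No count was found in any library for 9 of the patterning genes.

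Some markers of other cells that an olig2:GFP gate could hold were also higher in OPCs. By protein staining in early culture, the authors found Sox10 in all olig2:GFP-positive cells scored and GFAP in none. Beside 9.01% higher and 2.82% lower in OPCs over all tested features, 6 of 11 tested radial glia markers rose and none fell. Among them fabp7a, a radial glial lipid-binding protein, had a log2 fold change of 5.09, and the Notch target her4.1 had 159, 451, 138, 254 and 22.4 normalized counts in OPC1 to OPC5 and a single count in all OLs. Of the 6 genes 3 were highest in OPC2, 2 in OPC4 and 1 in OPC5, while 3 were lowest in OPC1 and 3 in OPC5. The radial glia marker gfap was 97.6 ± 70.0 in OPCs and 34.5 ± 15.2 in OLs and did not pass (edgeR adjusted p = 0.11). Summed over 12 markers, the radial glia list ranged from 110747 to 132634 normalized counts in OPCs and from 89848 to 136370 in OLs, so the sums overlapped. Most of each sum was glula, a glutamine synthetase gene that was abundant in both populations. Without glula the sums were 19302 to 42334 in OPCs and 6819 to 13809 in OLs and did not overlap. That gap rested on fabp7a, at 7259 to 21531 in OPCs and 188 to 736 in OLs. With fabp7a left out as well, the sums overlapped. Besides gfap and glula, the markers vim, nes and s100b did not pass the test (edgeR adjusted p = 0.647, 0.19 and 0.0727).

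Of 10 tested neuron markers 7 rose in OPCs and none fell, beside 9.01% higher and 2.82% lower over all tested features. The sums overlapped, at 11554 to 35241 normalized counts in OPCs and 6503 to 25376 in OLs. Without stmn4, the most abundant, they were 7326 to 10204 and 6478 to 8222 and still overlapped. The genes elavl3 (mean 4938 in OPCs against 5631 in OLs), elavl4 (1462 against 1643) and stmn4 were abundant in both populations. None of them passed the test (edgeR adjusted p = 0.579, 0.55 and 0.814). The GABA synthesis gene gad1b was at 133 ± 88.5 in OPCs and 0.447 ± 0.999 in OLs. The glutamate transporter genes slc17a6a and slc17a6b, the glycine transporter gene slc6a5 and the cholinergic genes chata and slc18a3a had at most 2 counts in a library, and the motor neuron genes mnx1 and isl1 at most 3 and 7. The neuron marker syt1a lost its call without OPC2 (edgeR adjusted p = 0.0526) and without OL4 (0.0518). Beside 9.01% of all tested features, 3 of 5 tested markers of cerebrospinal fluid-contacting neurons and the central canal rose. The sums of this list did not overlap, at 395 to 1020 in OPCs and 126 to 268 in OLs. Most of each OL sum was urp1, which did not pass the test (213 against 173 normalized counts, edgeR adjusted p = 0.475). Nor did gata3 (17.0 against 12.1, edgeR adjusted p = 0.872). Without urp1 the sums were 156 to 808 and 3.35 to 41.5 and still did not overlap. Among the 3 that rose was pkd2l1, a channel of cerebrospinal fluid-contacting neurons. It had 37.3, 476, 360.0, 259 and 675 normalized counts in OPC1 to OPC5 and at most 1.12 in an OL library. The floor plate gene shha had no count in any library. The 3 genes were highest in different libraries, pkd2l1 in OPC5, foxj1a in OPC4 and foxj1b in OPC2. The ciliogenesis gene foxj1b, another of the 3, lost its call on leaving out OPC2, OPC3, OPC4, OL1, OL3, OL4 or OL5 (edgeR adjusted p = 0.0584 to 0.126), with DESeq2's Wald test (0.0562) and after thinning to the smallest library total (0.0556).

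Of 6 tested proliferation markers 2 (mcm2 and mcm6) rose, beside 9.01% of all tested features. The sums, 933 to 2337 in OPCs and 1053 to 1391 in OLs, overlapped. Without pcna, which made up most of the OL sums, they were 282 to 1069 and 219 to 335 and still overlapped. The cycle genes cdk1 (69.0 against 0 normalized counts), mki67 (36.4 against 0.879) and mcm5 (37.8 against 0.143) did not pass the filter. They were called higher in OPCs in 7 of the 7 alternatives that tested them (edgeR adjusted p without the filter 0.000703, 0.00501 and 0.00169). With at most 3 counts in an OL library, these genes could enter the filtered fits among the 7 only through the OPC libraries. That fixed their direction there. The genes top2a (54.3 against 5.03 normalized counts) and mcm4 (27.3 against 2.36), which also failed the filter, were called in 0 and 2 of 7 alternatives. With at most 9 counts in an OL library, mcm4 too could enter the filtered fits only through the OPC libraries. None of pcna, mcm3, mcm7 and ccnb1 passed the test, and ccnb1 was lower in OPCs (10.2 against 32.9, edgeR adjusted p = 0.43). The call of mcm6 was lost without OPC2, OPC3, OPC4, OL1, OL2, OL3 or OL5 (edgeR adjusted p = 0.0523 to 0.101) and with the replicate block (0.0512). None of 3 tested microglia markers passed the test, with sums of 2109 to 6967 in OPCs and 3632 to 14770 in OLs. Vascular markers summed to at most 8.41 normalized counts in OPCs and 19.7 in OLs. Passing the filter fixed the direction of 3 of the 6 radial glia markers called and 5 of the 7 neuron markers. It also did so for 2 of the 3 cerebrospinal fluid-contacting neuron and central canal markers and 1 of the 2 proliferation markers (mcm2). The OPC marker gpr17 was a further such case. All of these reached the filter's cutoff in 0 OL libraries. Other called markers reached it in fewer OL libraries than the 5 needed, so they could not pass without OPC libraries. These were slc1a2b (4 OL libraries), snap25a and olig1 (3), syt1a (2), and foxj1b and mcm6 (1). The part of radial glia, neurons, cerebrospinal fluid-contacting neurons and cycling cells in the values of the transcription factors was not tested.

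Tested features with a gene name were ranked by resemblance to the mean profile of the 5 tested members over the 10 libraries. The first 5 were SLC1A1 (Pearson's r = 0.991), TSPAN18 (0.985), pnp6 (0.983), atp1b3b (0.981) and IGLON5 (0.981). Features without a name were left out of this ranking. All 5 were higher on average in OPCs, for example SLC1A1, a neuronal glutamate transporter, at 288 against 2.61 normalized counts and the cell adhesion gene IGLON5 at 125 against 4.35. Leaving si:ch211-210p4.6 out of the profile, a choice made after seeing the data, gave pcdh1g22, egr1, NTNG1, aplnra and pcdh1g26, of which 0 were shared with the first list. These correlations are descriptions over libraries that share depth, sorting and the difference between populations.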

How the data were processed

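RNA of FACsorted cells was converted to full-length cDNA (SMARTer Ultra Low Input kit), amplified, sheared and sequenced as single-end reads of 75 bases. Per the labels, the authors used bcl2fastq 2.17.1.14, GSNAP (GRCz10) and featureCounts 1.5.2, and deposited raw counts per Ensembl gene (31388 features, 10 libraries). The table's zeros at shared exons show that reads in bases shared by features were left out, without regard to strand, which lowers the counts of overlapping genes. Libraries of a population differed by far more than sampling noise (chi-square per degree of freedom at least 28.6 over 20 pairs), so none was counted as a duplicate. Whether replicates came from separate fish is not stated beyond their being biological replicates.

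Features were kept by filterByExpr, normalized with the size factors of DESeq2 (1.42.0) and compared by the quasi-likelihood test of edgeR (4.0.16, R 4.3.3), and p-values were adjusted after Benjamini and Hochberg over 12292 features, at a threshold of 0.05. The SE of a log2 fold change was computed as its absolute value divided by the square root of edgeR's F statistic. A fold against libraries all at 0 was computed against 3 counts per library. The ratio of related genes was compared by exact permutation (scipy 1.17.1) with a pseudocount of 0.5. Names came from the gene table (25925 of 31388 features). RefSeq chromosomes (GRCz12tu) told sox11a from sox11b. Members and gene lists were chosen with earlier results of these data known. The genes named were the members, list genes past the threshold, their defining markers and the 5 features with a gene name most like the mean profile. The tests were tested on simulated data. Alternatives were other normalizations (TMM, library size alone), filters, tests (DESeq2, limma 3.58.1), thresholds, pseudocounts, a replicate block and leaving out each library. One member is not reported here and was left out of the counts of members and of the mean profile. No sequences were printed.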

Additional observations from a re-analysis of the deposited data

Results flagged for a closer look

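In OPC2 pax6a had 94.4 normalized counts, while the other OPC libraries had 6.39 to 14.6. OPC2 lay above the next library by 0.906 of the whole range. A total of 9 groups of 5 libraries were examined in this way. A nominal rate would set apart 0.45 of them by chance, but whether skewed counts keep to that rate was not tested. Of the 9, this 1 stood apart. It rests on one library, and no cause was tested.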

How the results depend on the processing

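The direction and call of each tested member were kept in 90 of 90 single-member alternatives, and 4 members were called in each alternative except with no filter (5, with pax6a added) and a threshold of 0.01 (3, sox11a being lost). Requiring at least 10 counts in every library left no member to test. Over all features 1455 differed, against 2337 unfiltered, 469 where all libraries had at least 10 counts (270 higher and 199 lower in OPCs), 877 at a threshold of 0.01, and 1282 to 1796 on leaving out 1 library at a time. In the transcription factor lists 9 genes differed, against 14 unfiltered, 3 where all libraries had at least 10 counts, and 8 to 11 without 1 library. Scaling by library size alone moved the median of all log2 fold changes from 0.06 to 0.36. The log2 ratio of sox3 to sox19a, OPC minus OL, was −1.47 and ranged from −1.97 to −0.81 without 1 library. It was −0.99 with a pseudocount of 1 and −0.15 with 5, and no version passed the test.

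Libraries of both populations carry the numbers 1 to 5, and whether equal numbers mark pairs was not tested. The correlation of deviations was 0.0681 on average for equal numbers (0.0240 to 0.105) and −0.0170 for unequal ones (−0.102 to 0.0730). With the replicate block 1407 features and 4 members differed, the list count was 9, and the ratio of sox3 to sox19a gave p = 0.188 by exact permutation, where the smallest p possible was 0.0625. Few counts limit pax6a, of which 4 of 5 OPC libraries held 13 or fewer, and the exons that sox11b shares limit it whatever the depth. DESeq2's Wald test and limma gave 1984 and 2017 differing features.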
